A study of Mus musculus with 4 samples.

Results

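Ltf, which encodes the iron-binding protein lactoferrin, was set beside 7 further genes known from neutrophil granules and neutrophil cytosol: Ngp, Camp, Lcn2, S100a8, S100a9, Retnlg and Mmp9. The genes were selected on measured values: they were chosen by the large Ltf difference between the input counts, with these data already known, and the question was whether the other neutrophil genes differed in the same way. They are 8 of 37315 Ensembl identifiers counted in the input libraries. Symbols of the count rows follow the list of identifiers that came with this choice of genes, because neither the count files nor the reference tables used here pair identifiers with symbols. The identifier listed for Retnlg, ENSMUSG00000052435, is of doubtful pairing and could not be checked, so its counts are given under the identifier and are not read as Retnlg. That row still stands among the 8 in the counts, sums, medians and figures of input levels below. The m6A peaks of Retnlg were found by symbol and do not depend on that pairing.

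The groups were an entacapone input, an entacapone m6A immunoprecipitate (IP), a vehicle input and a vehicle m6A IP, with 1 library each. The tissue was the inguinal white fat pad of C57BL/6 males, 23 weeks old and obese through a high-fat diet, so the vehicle mice were obese too. Entacapone is a catechol-O-methyltransferase inhibitor used in Parkinson's disease that has also been described as an inhibitor of FTO, an enzyme that removes N6-methyladenosine (m6A) from RNA. The dose, the length of treatment and whether a library held 1 animal or a pool are not stated in the labels. The entacapone input held 33164576 gene-assigned counts and the vehicle input 24548212. With 1 library per treatment there was no replicate and no test; every interval below covers counting error only and compares these libraries, not the treatments.

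Neutrophils are short-lived blood granulocytes that store antimicrobial proteins in granules made in a fixed order during their maturation in bone marrow. Lactoferrin, the cathelicidin precursor Camp, the cystatin-related protein Ngp and the siderophore-binding lipocalin Lcn2 belong to the secondary granules, the gelatinase Mmp9 to the tertiary granules, and S100a8 and S100a9 form the cytosolic complex calprotectin. Several of these genes are also used outside neutrophils: lactoferrin is secreted by gland epithelia, Lcn2 is made by adipocytes, and S100a8, S100a9 and Mmp9 are expressed by monocytes and macrophages. Whole tissue RNA does not separate fewer cells of a type from less RNA per cell, and this holds for every value below.

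The promoters of 3 genes are shown: Ltf, which lay higher in the entacapone input, S100a8, which lay lower, and Lcn2, whose ratio interval included no change. Each sequence runs 5′ to 3′ along the gene's strand from 250 bases before to 50 bases after its annotated start, taken from RefSeq (GRCm38.p6). Capitals mark matches on either strand to TTNNGNAA (C/EBP family), AGGTCA (nuclear receptor half-site), GAGGAA (PU.1 and other ETS factors) and, for the core promoter element bound by TBP, TATAAA.
Ltf, chr9:111019042-111019341, plus strand: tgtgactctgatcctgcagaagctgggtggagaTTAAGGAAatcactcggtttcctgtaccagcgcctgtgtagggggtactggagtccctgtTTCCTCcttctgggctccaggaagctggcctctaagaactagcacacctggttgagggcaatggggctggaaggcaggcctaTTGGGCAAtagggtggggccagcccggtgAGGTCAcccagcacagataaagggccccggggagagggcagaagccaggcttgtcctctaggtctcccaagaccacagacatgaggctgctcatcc
Lcn2, chr2:32387690-32387989, minus strand: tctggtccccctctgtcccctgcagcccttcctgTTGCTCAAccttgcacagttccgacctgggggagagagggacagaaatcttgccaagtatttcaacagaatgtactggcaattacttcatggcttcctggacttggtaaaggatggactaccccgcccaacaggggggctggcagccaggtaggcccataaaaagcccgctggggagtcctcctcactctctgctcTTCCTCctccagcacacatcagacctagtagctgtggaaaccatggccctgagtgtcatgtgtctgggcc
S100a8, chr3:90668821-90669120, plus strand: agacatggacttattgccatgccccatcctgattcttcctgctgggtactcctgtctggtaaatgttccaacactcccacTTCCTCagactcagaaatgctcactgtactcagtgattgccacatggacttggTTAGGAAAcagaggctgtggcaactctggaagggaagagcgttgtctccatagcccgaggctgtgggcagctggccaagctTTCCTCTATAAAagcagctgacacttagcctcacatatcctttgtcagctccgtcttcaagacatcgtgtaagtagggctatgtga
Promoters of 7 of the 8 genes were matched by symbol. Of these 7, all but Camp held the C/EBP letters, which 40.7% of 32851 promoters held. The Ltf promoter held these letters at positions -217 and -75 (first base of the match, counted from the annotated start as 0), and an AGGTCA at -46. The AGGTCA letters occurred in 16.3% of all promoters and, among the 7, in Ltf and Retnlg. GAGGAA, in 28.3% of all promoters, occurred in Ltf, Lcn2 and S100a8. TATAAA, in 13.6% of all promoters, occurred in S100a8 at -30 and in S100a9 at 0, on the annotated start itself. In S100a8 it directly follows a GAGGAA match on the opposite strand without overlap. Ltf, Lcn2 and S100a8 each held the C/EBP and the GAGGAA letters, and the part of these letters in their input levels was not tested. A match describes letters in this window and is not evidence of binding.

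The Ltf transcript was far higher in the entacapone input. Ltf (ENSMUSG00000032496) had 731 counts in the entacapone input and 22 in the vehicle input. Scaled to library size with TMM factors, these were 21.3 CPM (counts scaled to library size; exact Poisson 95% interval 19.8 to 22.9) in the entacapone input and 0.925 CPM (0.580 to 1.40) in the vehicle input. The ratio was 23.1-fold (exact conditional 95% interval 15.1 to 37.0), a log2 ratio of 4.50. Because this difference led to the choice of the genes, it is a description. Of 13821 identifiers with at least 1 CPM on average over both inputs, Ltf had the log2 ratio of rank 2. An identifier was called higher or lower where its whole interval lay beyond 1.5-fold. Among the 1081 identifiers with 11 to 44 vehicle counts, 178 (16.5%) were called higher, beside 4.77% of all identifiers compared. In this range 2 had an interval wholly above 10-fold, Ltf among them. Ltf and the others in this range with under 1 CPM in the vehicle input passed the level filter only through a higher level in the entacapone input. The filter thus favoured calls of higher in this range, and the larger share is not read as a result.

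Ngp and Camp, also secondary granule genes, were hardly detected in either library. Ngp had 5 counts in the entacapone input and 4 in the vehicle input, or 0.146 and 0.168 CPM, with a ratio interval of 0.187 to 4.37. Camp had 1 count in the entacapone input and 6 in the vehicle input, a ratio interval of 0.00251 to 0.954. Neither gene reached 1 CPM on average, so neither could be called. Their upper bounds of 4.37-fold and 0.954-fold nevertheless lay below the lower bound of 15.1-fold for Ltf. Camp, Ngp and Ltf all lie on chromosome 9, Camp and Ngp 570.4 kb apart and Ngp and Ltf 596.3 kb apart. Any part of this position in their input levels was not tested.

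Lcn2 (ENSMUSG00000026822), which withholds iron from bacteria by binding their siderophores, had 120 counts in the entacapone input and 64 in the vehicle input. These were 3.50 and 2.69 CPM, a ratio of 1.30 with an interval of 0.953 to 1.79 that included no change. Of the identifiers compared, 85.5% had a lower log2 ratio. An Lcn2 difference above 1.79-fold therefore lies outside the counting interval.

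**Figure D1:**
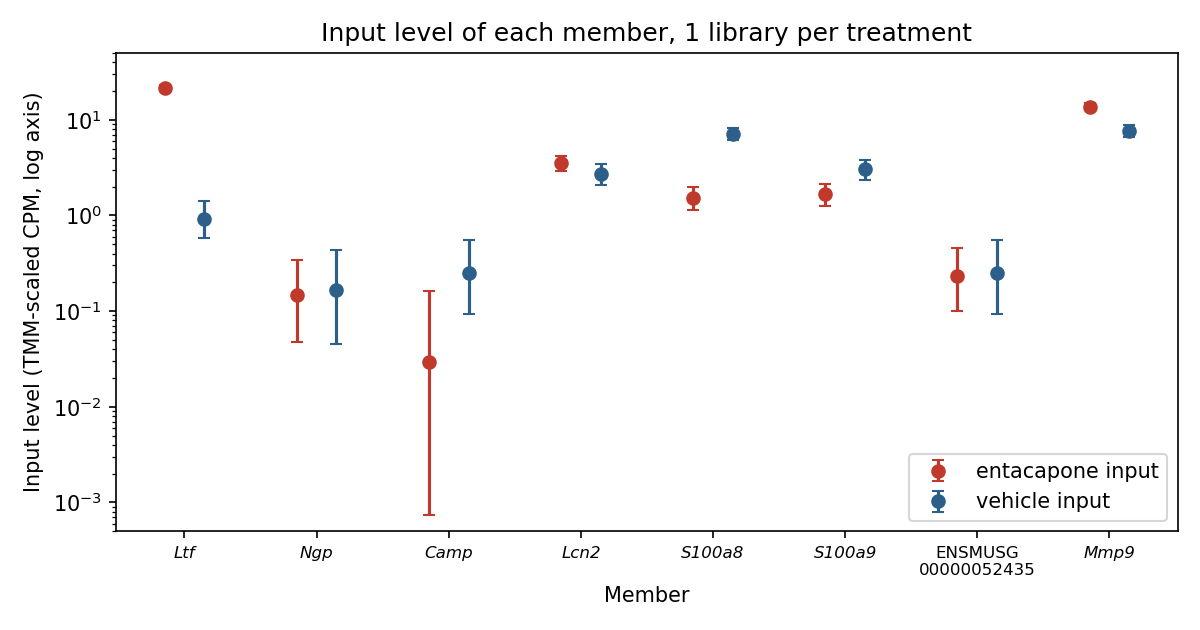
Input level of each gene in TMM-scaled CPM on a log axis, entacapone input left of vehicle input, with exact Poisson 95% intervals as bars and 1 library per point. Ltf stood at 21.3 CPM in the entacapone input against 0.925 CPM in the vehicle input, while S100a8 stood at 1.52 against 7.15 CPM.

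Of the calprotectin pair, S100a8 was called lower in the entacapone input and S100a9 was not called. S100a8 (ENSMUSG00000056054) had 52 counts in the entacapone input and 170 in the vehicle input, or 1.52 and 7.15 CPM. It was 4.71-fold lower in the entacapone input (interval 3.43 to 6.56), and 0.535% of the identifiers compared had a lower log2 ratio. S100a9 (ENSMUSG00000056071), which encodes the partner subunit, had 57 counts in the entacapone input and 72 in the vehicle input, or 1.66 and 3.03 CPM. Its ratio of 0.549 had an interval of 0.381 to 0.789, below 1 but not wholly beyond 1.5-fold, so it was not called. S100a8 differed more than S100a9: there were 0.912 S100a8 counts per S100a9 count in the entacapone input and 2.36 in the vehicle input, and the interval of the ratio of these ratios, 0.236 to 0.633, excluded 1. The genes lie 22.6 kb apart on chromosome 3.

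Mmp9 (ENSMUSG00000017737), the gelatinase of tertiary granules, had 472 counts in the entacapone input and 181 in the vehicle input. These were 13.8 and 7.61 CPM, a ratio of 1.81 with an interval of 1.52 to 2.16, just past the 1.5-fold bound. The call ended with a 99% interval and with a bound of 2-fold. ENSMUSG00000052435, the identifier of doubtful pairing, had 8 counts in the entacapone input and 6 in the vehicle input, with a ratio interval of 0.282 to 3.24, and did not reach 1 CPM on average.

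**Figure D2:**
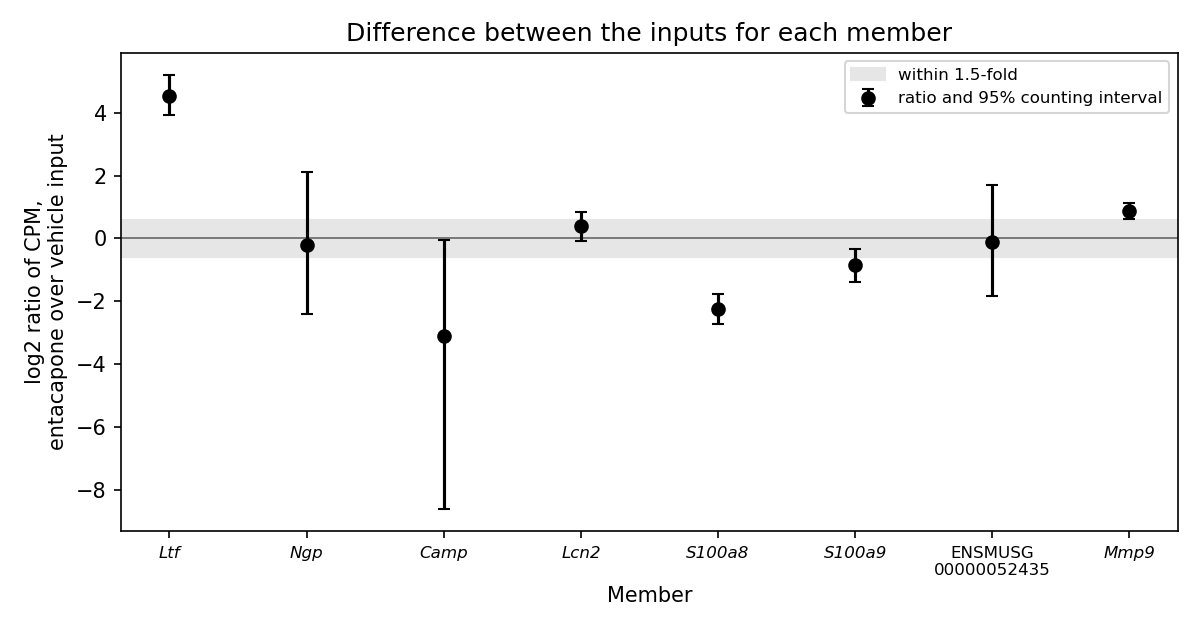
The log2 ratio of CPM, entacapone over vehicle input, for each gene, with exact conditional 95% counting intervals as bars and the grey band marking differences within 1.5-fold. The Ltf interval lay above those of the 7 other rows, ENSMUSG00000052435 among them, the highest of which reached 4.37-fold.

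The 8 genes thus lay in different directions. Of the 8, 5 passed the level filter; 2 of these were called higher, Ltf and Mmp9, against 4.77% of all identifiers compared, and 1 was called lower, S100a8, against 3.23%. Nothing is read from these counts about the genes, since the same contrast led to their choice. The median log2 ratio over the 8 genes was -0.19, beside 0.03 over the 22551 identifiers with a count in either input; it lies between the values of Ngp and ENSMUSG00000052435, which had few counts. Over the 5 genes that passed the filter the median was 0.37, that of Lcn2, beside -0.01 over all identifiers compared. The medians differ in sign with the genes included, and no common direction is read from them. Summed over the 7 rows other than Ltf, ENSMUSG00000052435 among them, the entacapone input had 715 counts and the vehicle input 503. The scaled ratio was 0.987 (interval 0.879 to 1.11). That sum joined opposite differences, with Mmp9 higher and S100a8 lower in the entacapone input.

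**Figure D3:**
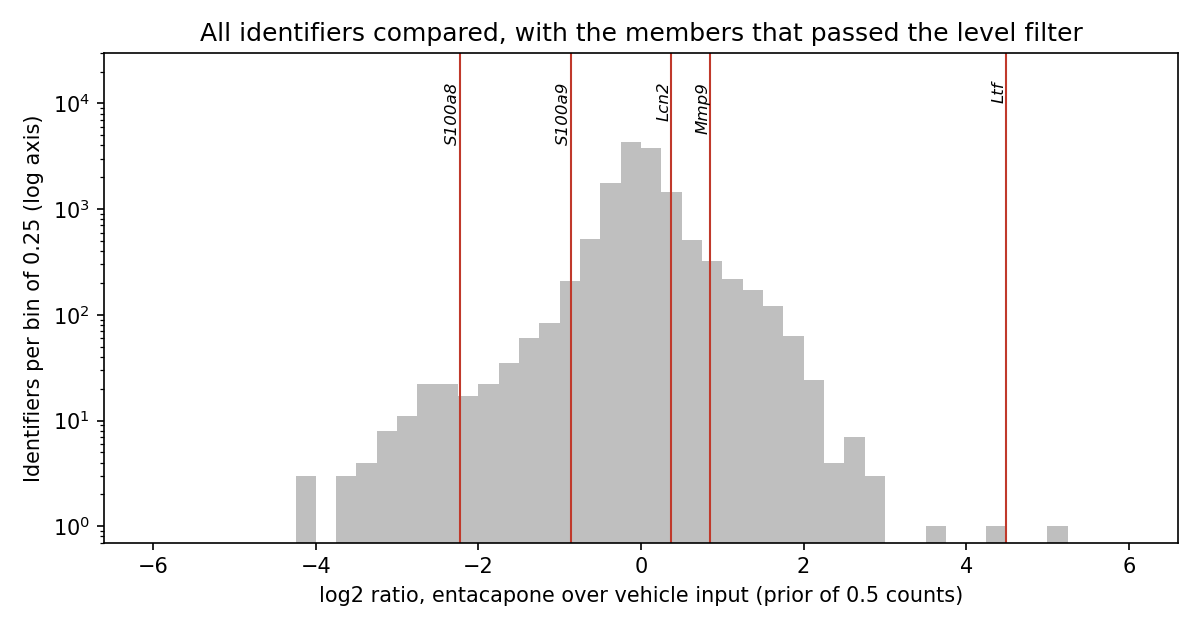
Number of identifiers per bin of log2 ratio, entacapone over vehicle input, on a log axis, for the 13821 identifiers compared, with red lines at the 5 genes that passed the level filter. S100a8 at -2.23 and Ltf at 4.50 lay in opposite tails, with S100a9, Lcn2 and Mmp9 nearer the centre.

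Within a library the ratio of one gene's counts to another's does not depend on how libraries are scaled. There were 6.09 Ltf counts per Lcn2 count in the entacapone input and 0.344 in the vehicle input, a 17.6-fold difference (interval 10.3 to 31.3). Against Mmp9 the Ltf counts stood at 1.55 per count in the entacapone input and 0.122 in the vehicle input, a 12.7-fold difference (8.01 to 21.1). Relative to S100a8 and S100a9, Ltf differed by 107.3-fold (62.6 to 191.7) and 41.6-fold (23.5 to 75.9). Relative to Ngp, with its few counts, the difference was 26.1-fold (4.84 to 130.8), relative to ENSMUSG00000052435 it was 24.5-fold (6.44 to 88.8), and relative to Camp, with 1 count in the entacapone input, its interval began at 22.0. In each of these 7 pairs the interval lay above 1, which describes the choice of Ltf as well as the libraries.

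The identifiers whose levels were most like those of Ltf were sought by Euclidean distance in log2 CPM over both inputs, which are 2 points per identifier. The nearest was ENSMUSG00000031710, at a distance of 0.74, with 1211 counts in the entacapone input and 24 in the vehicle input. The next was ENSMUSG00000030693, at 1.40, with 575 and 57 counts in the entacapone and vehicle inputs. The 5 nearest lay at distances up to 1.84 and had log2 ratios of 1.94 to 5.10. The search covered only the 13821 identifiers that passed the level filter. Ngp, Camp and ENSMUSG00000052435 did not pass it and so could not be found. None of the 5 nearest was one of the other 4 genes that passed, and nothing further is read from this.

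No m6A peak was listed in Ltf. In m6A sequencing, peaks are regions where fragments pulled down with an antibody against m6A are enriched over input. A peak was assigned by its midpoint within the gene's RefSeq span. The 8 spans held 3 of 31856 entacapone peaks and 1 of 22860 vehicle peaks. Peaks lay in 2 of the 8 genes in the entacapone list and in 1 of 8 in the vehicle list. For comparison, 50.0% and 41.1% of 21887 protein-coding genes carried a peak in the entacapone and vehicle lists. Among the 11383 with spans between 964 and 23475 bp, the range of the 8 genes, these shares were 43.2% and 34.2%. With 8 genes, some of them hardly detected, nothing is read from the differences from these shares.

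Ltf (chr9:111019292-111042766) carried 0 listed peaks in either library, with 731 input counts under entacapone and 22 under vehicle. The nearest peak lay 12.6 kb outside its span in each list, in Ccrl2, a chemerin-binding receptor gene. No peak was listed for Ngp, Camp, S100a8, S100a9 or Retnlg in either library. A gene without a listed peak is not shown to lack m6A, since peak detection needs reads, and Ngp and Camp had at most 6 counts in an input.

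Mmp9 (chr2:164940326-164955850) carried a peak common to both lists and a further entacapone peak. The common peak stood in the entacapone list at chr2:164954984-164955096, fold 3.32, and in the vehicle list at chr2:164954975-164955098, fold 3.43. The fold is the authors' value, read here as enrichment of IP over input. The further peak, at chr2:164952482-164952568 with a fold of 4.07, had no overlap in the vehicle list. Lcn2 (chr2:32384637-32387739, minus strand) carried 1 peak of 49 bp, in the entacapone list alone, at chr2:32384663-32384712, with a fold of 5.16 that exceeded 86.3% of that list. Its midpoint lay 50.5 bp from the lower-coordinate end of the span, which is the 3′ end of this gene. Protein-coding genes with a peak in the entacapone list alone made up 11.3% of all and 11.5% of those in the span range. Both genes had more input counts in the entacapone library, 472 against 181 for Mmp9 and 120 against 64 for Lcn2, and the part of this difference in the peak lists was not tested.

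Other genes from neutrophil lists could be followed in the peak lists only, by symbol. The RNA came from whole tissue, so a peak in such a gene does not show that neutrophils held the transcript. Lists of primary granule, other granule and secreted, surface receptor, chemoattractant and transcription factor genes held 58 matched genes. Of these, 21 (36.2%) carried an entacapone peak and 14 (24.1%) a vehicle peak, with 13 genes in both peak lists. Beside these stand 50.0% and 41.1% of protein-coding genes, or 43.2% and 34.2% of those in the span range of the 8 genes. The list genes were not matched to either background by span or input level, so nothing is read from their lower shares. A peak in the entacapone list alone was found in 8 (13.8%), beside 11.3% of protein-coding genes, which is near that background. In the primary granule list, 2 of 6 genes carried an entacapone peak and 0 a vehicle peak, again beside 50.0% and 41.1% of protein-coding genes; with 6 genes nothing is read from this difference. These were Prtn3, proteinase 3, with 1 entacapone peak of fold 4.04, and Prss57, a serine protease, with 1 of fold 1.74. Mpo, Elane and Ctsg, the defining primary granule enzymes, had no listed peak.

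Surface receptors carried a peak in 7 of 16 genes in the entacapone list and in 5 of 16 in the vehicle list. The shares over protein-coding genes were 50.0% and 41.1%. Cxcr2, the receptor for neutrophil-attracting chemokines, had 4 entacapone peaks, the highest of fold 6.84, and 0 vehicle peaks. Clec4e, a pattern receptor of myeloid cells, had 1 and 0 peaks in the entacapone and vehicle lists. Csf3r, the receptor for the granulocyte growth factor G-CSF, had 1 peak in each list, and Ly6g, the mouse neutrophil surface marker, had 0 in each.

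Other granule and secreted genes carried a peak in 4 of 16 in the entacapone list and 2 of 16 in the vehicle list. For these and the chemoattractants below, the shares over protein-coding genes were again 50.0% and 41.1%. Hp, haptoglobin, and Orm1, an acute-phase glycoprotein, had an entacapone peak alone, of fold 1.79 and 1.60. Of the chemoattractants and growth factors, 3 of 12 had an entacapone peak and 2 of 12 a vehicle peak, and Cxcl1, a neutrophil-attracting chemokine, had 1 entacapone peak of fold 5.10 and 0 vehicle peaks.

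The list of granulocyte transcription factors carried peaks in 5 of 8 genes in each peak list, beside 50.0% and 41.1% of protein-coding genes. Which cells of the fat pad held these transcripts was not tested. Cebpe, a C/EBP factor needed for secondary granule genes, had 0 entacapone peaks and 1 vehicle peak of fold 6.96. Cebpb had 1 entacapone peak of fold 1.81 and 0 vehicle peaks. Spi1, which encodes PU.1, had 2 peaks in the entacapone list and 5 in the vehicle list, and Gfi1 had 2 in each. Each peak list comes from 1 IP library and the entacapone list is the larger, so these differences are not read as gains or losses of m6A.

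Of other genes related to lactoferrin by iron handling, 7 of 11 had an entacapone peak and 4 of 11 a vehicle peak. Beside these and the S100 counts below stand 50.0% and 41.1% of protein-coding genes. Tfrc, the transferrin receptor, had 1 entacapone peak of fold 5.05, and Trf, transferrin, which belongs to the same protein family as lactoferrin, had 1 of fold 2.19, and neither had a vehicle peak. Among other S100 genes, 2 of 13 had an entacapone peak and 4 of 13 a vehicle peak. S100a3 and S100a10 had a vehicle peak alone, with folds of 8.66 and 3.83, and S100a11 an entacapone peak alone, of fold 4.22.

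Markers of the other cells that could hold these transcripts were likewise seen only as peaks. Each count below stands beside 50.0% of protein-coding genes with an entacapone peak and 41.1% with a vehicle peak. With so few genes per list, nothing is read from differences from these shares. Gland and surface epithelium genes carried a peak in 8 of 19 in the entacapone list and 7 of 19 in the vehicle list. Krt8, a simple epithelial keratin, had 1 entacapone peak alone, and Krt15 and Muc1 had 1 vehicle peak alone. The milk protein genes Csn2, Csn3, Wap and Lalba had no listed peak. Macrophage markers carried a peak in 9 of 14 and 6 of 14 in the entacapone and vehicle lists, and lymphocyte markers in 9 of 10 and 7 of 10. Adipocyte markers carried a peak in 6 of 8 in the entacapone list and 5 of 8 in the vehicle list, with Lep, Plin1, Cidec, Pparg and Retn in both and Adipoq and Fabp4 in neither. Acute-phase genes had a peak in 1 of 9 and 3 of 9, erythroid markers in 4 of 7 and 2 of 7, and skeletal muscle markers in 3 of 7 in each list. Peaks do not measure the amount of a transcript or show which cells held it. The part of any of these cell types in the Ltf, S100a8 or Mmp9 differences was not tested.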

How the data were processed

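The authors deposited raw, unnormalized read counts per Ensembl gene identifier for each input. Their deposited peak lists hold coordinates and an unlabelled ratio per peak, read here as the authors' fold enrichment because it never falls below 1. Per the submitters' processing notes, TopHat2 2.1.1, MACS2 and the assembly mm10 were used; the counting tool, the annotation release and the peak threshold are not given in these sources, nor whether starts count from 0 or 1.

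Scaling used the TMM method of edgeR 4.0.16 in R 4.3.3. Log2 ratios used a prior of 0.5 counts, and intervals are exact conditional (Clopper-Pearson) at 95%, computed with scipy 1.17.1, as were 8 conditional intervals for ratios between genes. The calling steps were tested on simulated counts that held counting error only. That test does not cover variation between animals or libraries. DESeq2 1.42.0 size factors, total counts and the upper quartile were alternatives. A shared peak needed an overlap of at least 1 bp.

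The members and gene lists were chosen with earlier results of these data known. Named list genes are those with a peak in 1 list alone, up to 3 per list by fold; list genes with peaks in both lists or in none were named after their values were seen. Of 157 list genes, 156 were matched by symbol. No table used here pairs symbols with Ensembl identifiers, so the planned input counts of list genes were not computed.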

Additional observations from a re-analysis of the deposited data

How the results depend on the processing

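Under other scalings (DESeq2 size factors, total counts, upper quartile), a prior of 2 counts, a 99% interval, a 2-fold bound and no level filter, the Ltf log2 ratio lay between 4.41 and 4.59 and that of S100a8 between -2.24 and -2.13, and both calls were kept. The number of genes called higher was 1 in place of 2 with a 99% interval and with a 2-fold bound, where Mmp9 was no longer called at an unchanged log2 ratio of 0.85, since those settings ask for more. Total counts moved every log2 ratio up by 0.09 against TMM. At a fold of at least 4 the entacapone peaks in the 8 genes were 2 in place of 3, the vehicle peaks 0 in place of 1 and the shared entacapone peaks 0 in place of 1, since the common Mmp9 peak lies under that fold. The Camp log2 ratio, with few counts, was -1.94 with a prior of 2 counts in place of -2.64. No paired analysis was possible because each treatment had 1 input and 1 IP library. The counts of Ngp, Camp and ENSMUSG00000052435, at most 8 per library, limit their ratios to wide intervals. Input counts of the list genes were not computed under any alternative, for want of a table that pairs symbols with identifiers.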
